A study of Homo sapiens with 4 samples.

Results

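The genes described here are the 32 listed genes of the SREBP transcription factor pathway, out of 58735 Ensembl genes in the count table. The list covers cholesterol and fatty acid synthesis, sterol transport and SREBP regulation. They were chosen by name, with earlier results of these data known. Matching to the table used the GENCODE 29 annotation (GRCh38), and all 32 were found and passed the filter on low counts. Each was given 1 of 4 roles. These are the mevalonate steps from acetyl-CoA to farnesyl diphosphate (7 genes) and the steps from squalene to cholesterol, counting squalene synthesis itself (11 genes). The other roles are sterol transport and SREBP regulation (6 genes) and fatty acid synthesis and desaturation (8 genes). RNA-seq was done on A549, an established human lung adenocarcinoma line, in 2 libraries of cells with the genotype UHRF1 KO and 2 of cells with a non-targeting guide (control). Both groups received a lentiCRISPRv2-hygro virus and hygromycin, and both grew in the same serum-containing medium. The labels do not state how long the cells were kept after infection, or if they were a pool or a clone. They also do not say that replicate libraries were grown separately. The p-values below therefore rest on a spread between libraries that may be technical only.

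Cells make cholesterol from acetyl-CoA through mevalonate, isoprenoid diphosphates, squalene and lanosterol, and make fatty acids from the same cytosolic acetyl-CoA. Both routes are switched on by SREBPs, membrane-bound transcription factors encoded by SREBF1 and SREBF2. When sterols are scarce, the escort protein SCAP carries SREBPs from the endoplasmic reticulum to the Golgi, where proteases release their active domains; when sterols are plentiful, INSIG proteins hold SCAP back. UHRF1, the gene targeted by the guide, encodes the protein that helps maintain DNA methylation after replication.

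Total counts were 20020366 and 23977168 in UHRF1 KO libraries and 18604598 and 19222886 in control libraries, and every one of the 32 genes had at least 286 counts in each library. UHRF1 itself was at 39.1 and 40.2 CPM (read counts scaled to a common library total with TMM factors) in UHRF1 KO libraries and 97.6 and 98.9 CPM in control libraries, a 2.47-fold lower level (edgeR adjusted p = 3.92e-20) that does not measure the protein. The 5 epithelial markers summed to 2912 and 2881 CPM in UHRF1 KO libraries and 3824 and 3633 CPM in control libraries. Most of this was keratin KRT8, at 2119 and 2096 CPM in UHRF1 KO libraries and 2753 and 2600 CPM in control libraries, while EPCAM was at 10.8 and 9.21 CPM in UHRF1 KO libraries and 1.63 and 2.80 CPM in control libraries. Of 20 markers of other cell types, 7 could be tested, and 6 of them were higher in UHRF1 KO. Over all genes tested that share was 32%. PECAM1, COL1A2, PDGFRB, ALB and PLIN1 had at most 7 counts in a control library and passed the filter only through UHRF1 KO. For such genes the filter itself favours a higher value in UHRF1 KO. Adipocyte and hepatocyte markers, whose cells also express lipid synthesis genes, summed to 0.772 and 0.644 CPM and to 0.675 and 1.09 CPM in UHRF1 KO libraries, against 0.449 and 0.377 CPM and 0.224 and 0.431 CPM in control libraries. Leukocyte markers summed to 1.16 and 1.13 CPM in UHRF1 KO libraries and 0.112 and 0.162 CPM in control libraries, with CD3E and MS4A1 at 0 in all 4. Fibroblast markers summed to 24.6 and 25.1 CPM in UHRF1 KO libraries and 3.87 and 5.82 CPM in control libraries, and endothelial markers to 29.9 and 31.0 CPM in UHRF1 KO libraries and 0.449 and 0.108 CPM in control libraries, nearly all of it PECAM1, while CDH5 had at most 3 counts. The part of these markers in the results was not tested. In bulk RNA a lower share of cells and less RNA per cell cannot be told apart.

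Of the 26 genes of lipid synthesis 23 were lower in UHRF1 KO cells. Of the 6 genes of sterol transport and SREBP regulation 2 were lower (33.3%), near the 30.1% over all genes tested. Among the 32 genes, 25 fell, 3 rose and 4 did not pass the test (edgeR, adjusted p under 0.05), where 30.1% of the 17030 genes tested fell and 32% rose. The calls therefore need to be read against a background in which 62% of genes changed one way or the other. Among 8376 protein-coding genes with a mean level at least that of the lowest of the 32 genes (16.0 CPM), 46.4% fell, against 78.1% of the 32. Falls of at least 1.5-fold were seen for 13 of the 32 genes and for 8.34% of all genes tested (8% of the 8376). The median log2 fold change was -0.49 for the 32 genes, 0.02 for all genes tested and -0.11 for the 8376. The 2 UHRF1 KO libraries did not overlap the 2 control libraries for 31 of the 32 genes, and the same held for 80% of all genes tested and 86.1% of the 8376. The largest fall was 2.14-fold (ACAT2) and the largest rise 1.33-fold (SREBF1).

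**Figure D1:**
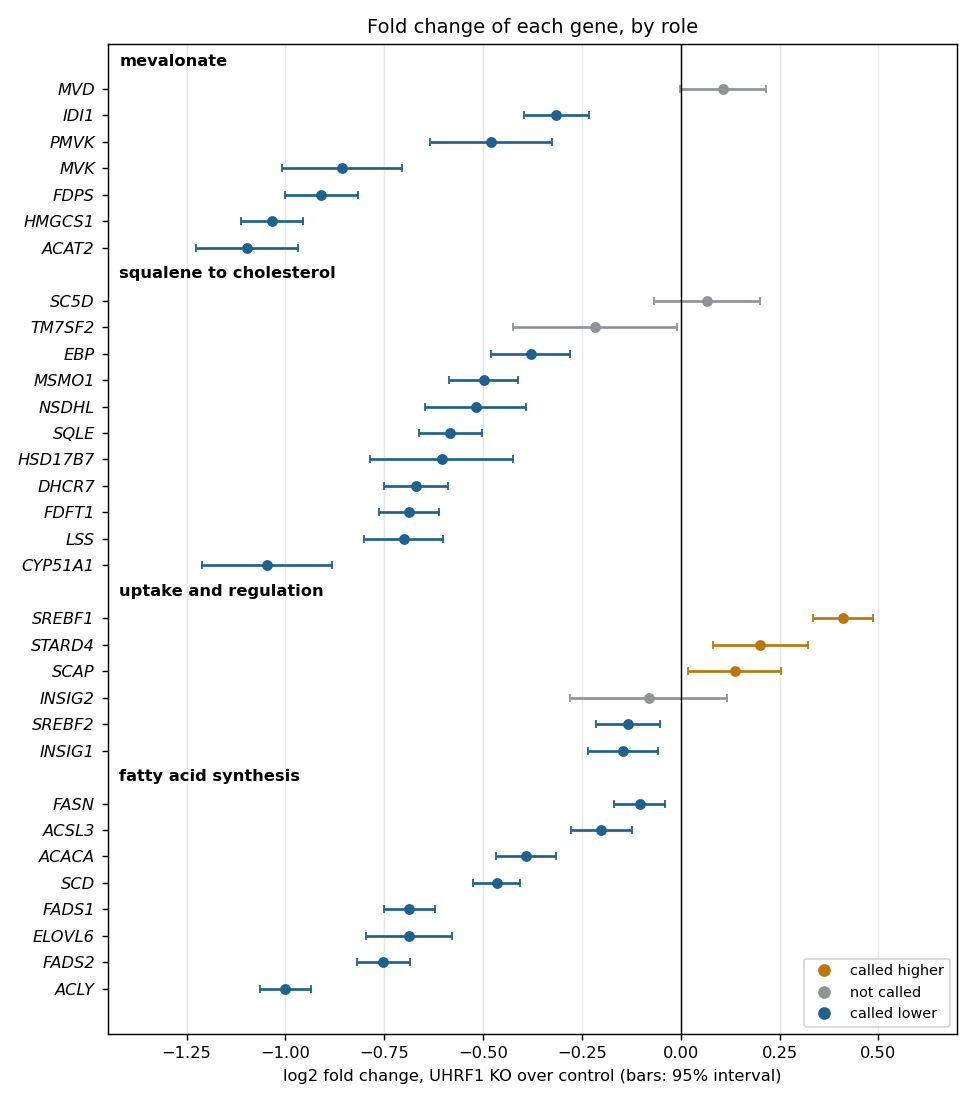
Fold change of each of the 32 genes, grouped by role. The x axis is the log2 fold change of UHRF1 KO over control, points are edgeR estimates and bars their approximate 95% intervals, and colour gives the call at an adjusted p under 0.05. Synthesis genes lie mostly left of 0, down to -1.10 for ACAT2, while regulators lie between -0.15 and 0.41. With libraries recentred SREBF1 is at -0.01, which is 0.22 above the median gene of that fit.

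The mevalonate steps had the lowest median of the 4 roles, a log2 fold change of -0.86, with 6 of 7 genes lower and 0 higher. ACAT2, the cytosolic thiolase that joins acetyl-CoA units at the start of the pathway, was at 39.5 and 34.2 CPM in UHRF1 KO libraries and 78.4 and 78.9 CPM in control libraries. The groups lay far apart, and the fall was 2.14-fold, with an SE of 0.063 on the log2 scale (edgeR adjusted p = 1.97e-16). HMGCS1, which makes HMG-CoA (chromosome 5, 43289395 to 43313512, minus strand), was at 183 and 173 CPM in UHRF1 KO libraries and 364 and 364 CPM in control libraries. Its fall was 2.05-fold (SE 0.039 on the log2 scale; edgeR adjusted p = 1.40e-21), and neither UHRF1 KO library reached the control level. The farnesyl diphosphate synthase FDPS was at 83.2 and 87.2 CPM in UHRF1 KO libraries and 161 and 159 CPM in control libraries. That is 1.88-fold lower, close to the fall of mevalonate kinase MVK, which was at 25.4 and 23.2 CPM in UHRF1 KO libraries and 45.1 and 42.7 CPM in control libraries and fell 1.81-fold. The SEs of the log2 fold changes of FDPS (-0.91) and MVK (-0.86) were 0.045 and 0.075, near or larger than the distance between them.

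PMVK and IDI1, between MVK and FDPS in the pathway, fell less, and MVD did not pass the test. PMVK, the next kinase after MVK, was at 27.4 and 25.1 CPM in UHRF1 KO libraries and 37.2 and 35.8 CPM in control libraries, a log2 fold change of -0.48 (SE 0.076). The isomerase IDI1 was at 160.3 and 160.2 CPM in UHRF1 KO libraries and 197 and 202 CPM in control libraries, a log2 fold change of -0.31 (SE 0.040). MVD, which decarboxylates the last mevalonate intermediate, stood apart from its neighbours in the pathway. It was at 70.8 and 70.7 CPM in UHRF1 KO libraries and 64.2 and 67.1 CPM in control libraries, and its log2 fold change of 0.11 did not pass the test (edgeR adjusted p = 0.0834, 95% interval -0.0024 to 0.22). MVD was called higher with upper-quartile factors (0.13, edgeR adjusted p = 0.0347) and with a minimum of 1 CPM in 2 libraries (0.13, edgeR adjusted p = 0.0364). After GC and length detrending the MVD value turned to -0.08, and to -0.37 (edgeR adjusted p = 6.38e-09) with libraries also recentred, which is -0.14 relative to the median gene of that fit. On the scale of CPM per kilobase of exon, the ratio of MVD to PMVK was 0.701 and 0.765 in UHRF1 KO libraries and 0.468 and 0.509 in control libraries, so the 2 consecutive steps changed unequally.

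**Figure D2:**
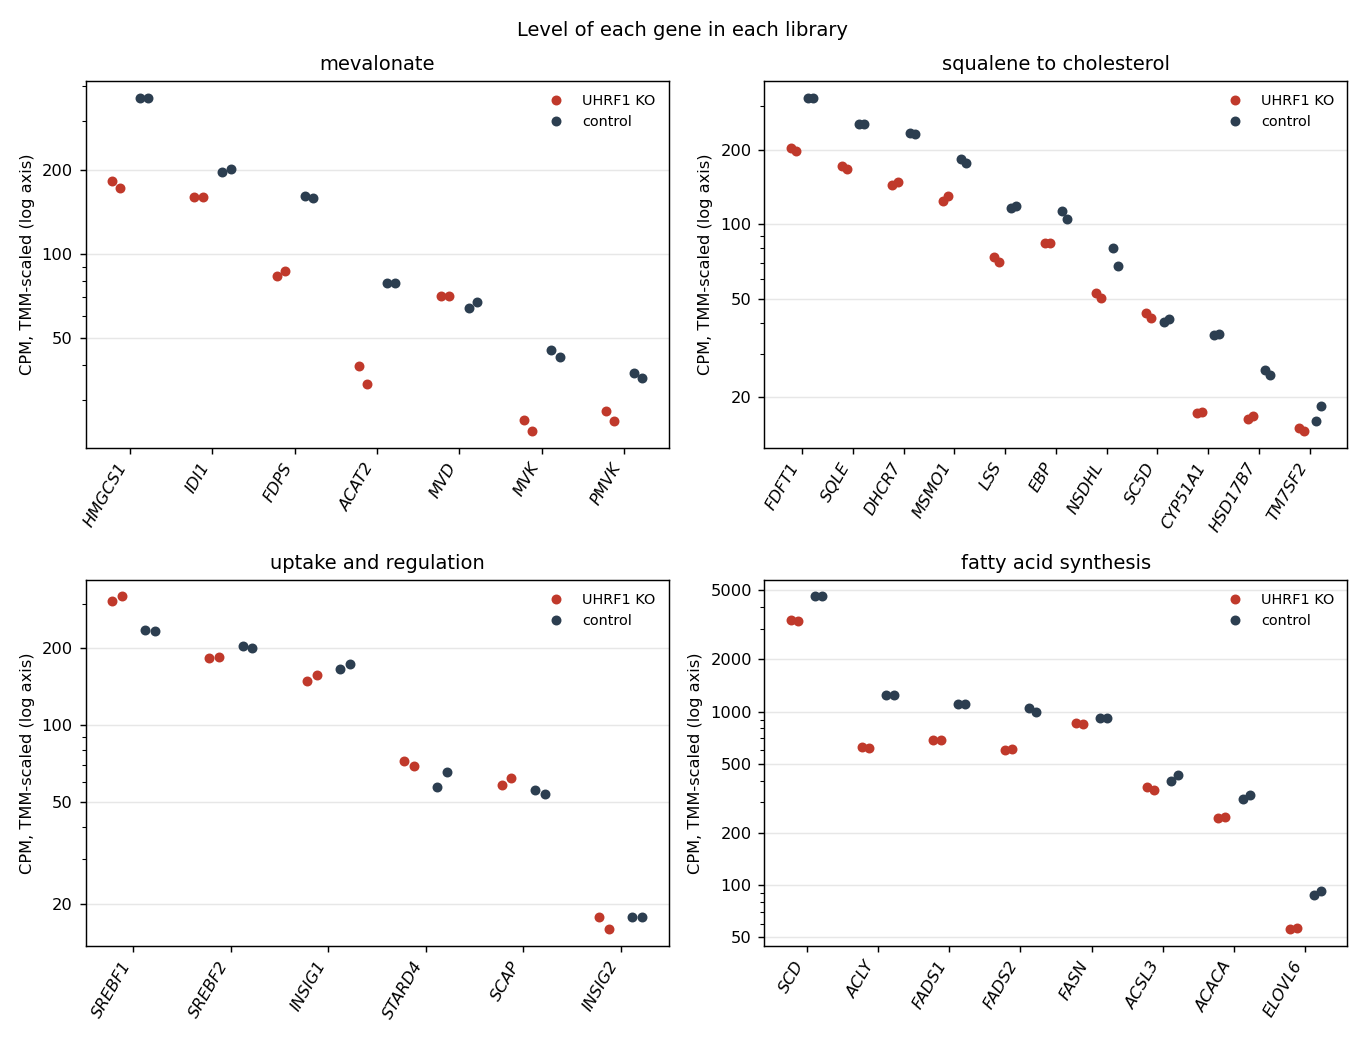
Level of each of the 32 genes in each library, by role. The y axis is TMM-scaled CPM on a log axis, each point is 1 library, and for each gene the 2 UHRF1 KO libraries stand left of the 2 control libraries; genes are ordered by their control level. Replicate points nearly coincide for most genes, and only INSIG2 has overlapping groups.

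Of the 11 genes from squalene to cholesterol, 9 fell, 0 rose and 2 did not pass the test, with a median log2 fold change of -0.58. FDFT1, the squalene synthase at the branch into sterols, was at 204 and 199 CPM in UHRF1 KO libraries and 325 and 324 CPM in control libraries, 1.61-fold lower (edgeR adjusted p = 4.61e-17). SQLE, the squalene epoxidase and an oxygen-dependent control step, was at 172 and 168 CPM in UHRF1 KO libraries and 255 and 255 CPM in control libraries, a log2 fold change of -0.58 (SE 0.039). LSS, which closes the rings to give lanosterol, was at 74.1 and 70.6 CPM in UHRF1 KO libraries and 117 and 118 CPM in control libraries, 1.63-fold lower. In each of these 3 genes the gap between groups was many times the distance between libraries of a group.

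CYP51A1, the cytochrome P450 that takes a methyl group off lanosterol, had the largest fall of this role. It was at 17.3 and 17.5 CPM in UHRF1 KO libraries and 35.7 and 36.1 CPM in control libraries, 2.07-fold lower with edgeR (adjusted p = 3.87e-13, SE of 0.081 on the log2 scale). The enzymes that trim and reduce the sterol after it fell by less. MSMO1, a methylsterol oxidase, was at 125 and 130.1 CPM in UHRF1 KO libraries and 183 and 177 CPM in control libraries. NSDHL, its partner dehydrogenase, was at 52.8 and 50.6 CPM in UHRF1 KO libraries and 80.0 and 68.2 CPM in control libraries, with the wider spread in control. HSD17B7, the keto-reductase of the same complex, was at 16.3 and 16.8 CPM in UHRF1 KO libraries and 25.7 and 24.7 CPM in control libraries. The log2 fold changes of MSMO1, NSDHL and HSD17B7 were -0.50, -0.52 and -0.60, with SEs of 0.043, 0.063 and 0.088. After GC and length detrending they were -0.38, -0.65 and -0.43, and the differences between these genes were not tested.

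The last steps were uneven. DHCR7, which makes cholesterol in the final reduction of one branch, was at 144 and 149 CPM in UHRF1 KO libraries and 234 and 232 CPM in control libraries, 1.59-fold lower. The sterol isomerase EBP was at 84.2 and 83.9 CPM in UHRF1 KO libraries and 113 and 106 CPM in control libraries, 1.30-fold lower. The desaturase SC5D, which acts between EBP and DHCR7, was at 44.0 and 41.8 CPM in UHRF1 KO libraries and 40.5 and 41.3 CPM in control libraries. Its groups nearly touched and it did not pass the test (log2 fold change 0.07, 95% interval -0.07 to 0.20, edgeR adjusted p = 0.388), with 0.29 after GC and length detrending (edgeR adjusted p = 7.49e-05) and -0.01 with libraries recentred. TM7SF2, a sterol reductase whose activity LBR shares, had 311 and 364 counts in UHRF1 KO libraries (a mean of 14.8 CPM) and 286 and 341 counts in control libraries (a mean of 17.2 CPM). Its log2 fold change of -0.22 had an interval of -0.42 to -0.01 and an edgeR adjusted p of 0.0628, which became 0.0142 without control replicate 1 and 0.0456 with no filter on low counts. After GC and length detrending TM7SF2 was called lower at -0.45 (edgeR adjusted p = 1.09e-04), and at -0.75 with libraries recentred.

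All 8 genes of fatty acid synthesis fell, between 1.07-fold and 2.00-fold, with a median log2 fold change of -0.58. ACLY, which splits citrate into the cytosolic acetyl-CoA that feeds both sterols and fatty acids (chromosome 17, 41866908 to 41930542, minus strand), fell most. It was at 629 and 617 CPM in UHRF1 KO libraries and 1251 and 1241 CPM in control libraries, 2.00-fold lower (SE 0.032 on the log2 scale, edgeR adjusted p = 1.51e-23). ACACA, which makes malonyl-CoA, was at 243 and 246 CPM in UHRF1 KO libraries and 313 and 329 CPM in control libraries, 1.31-fold lower. FASN, the synthase that builds palmitate from it, had the smallest TMM fall of the 8. It was at 861 and 853 CPM in UHRF1 KO libraries and 921 and 921 CPM in control libraries, 1.07-fold lower (edgeR adjusted p = 0.00478). Leaving out UHRF1 KO replicate 2 left it uncalled (edgeR adjusted p = 0.0884). Its log2 fold change was -0.20 after GC and length detrending and -0.49 (edgeR adjusted p = 7.00e-23) with libraries recentred, which is -0.26 relative to the median gene of that fit. The ratio of FASN to ACLY in CPM per kilobase was 0.763 and 0.771 in UHRF1 KO libraries and 0.410 and 0.414 in control libraries.

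The genes that lengthen, desaturate and activate fatty acids fell to different degrees. SCD, which desaturates stearate to oleate, was the most abundant of the 32 genes per exon length, with a mean of 624 CPM per kilobase in UHRF1 KO and 861 CPM per kilobase in control. It was at 3382 and 3307 CPM in UHRF1 KO libraries and 4612 and 4622 CPM in control libraries, 1.38-fold lower (edgeR adjusted p = 2.42e-15). ELOVL6, which elongates palmitate, was at 55.5 and 56.3 CPM in UHRF1 KO libraries and 87.8 and 92.3 CPM in control libraries, 1.61-fold lower. FADS1 and FADS2, the desaturases of polyunsaturated fatty acids, are neighbours on chromosome 11 that share 490 exon bases on opposite strands, so reads in that stretch cannot be told apart without strand. FADS1 was at 686 and 683 CPM in UHRF1 KO libraries and 1101 and 1103 CPM in control libraries, and FADS2 at 600.3 and 613 CPM in UHRF1 KO libraries and 1044 and 999.6 CPM in control libraries. The pair fell 1.61-fold and 1.68-fold, with no overlap of the groups. ACSL3, which activates fatty acids at the endoplasmic reticulum and lipid droplets, was at 368 and 354 CPM in UHRF1 KO libraries and 400 and 430.4 CPM in control libraries. Its log2 fold change of -0.20 (edgeR adjusted p = 2.27e-05) turned to 0.06 (edgeR adjusted p = 0.111) after GC and length detrending.

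Of the 6 genes of sterol transport and SREBP regulation 3 were higher (50%) and 2 lower (33.3%), with a median log2 fold change of 0.03. Over all genes tested 32% were higher and 30.1% lower, so the share that fell is near that of all genes. With libraries recentred, which moved every gene down, 1 of the 6 was called higher and 3 lower. In that fit 20.8% of all genes were called higher and 48.3% lower. SREBF1, which encodes the SREBP that chiefly drives fatty acid genes (chromosome 17, 17810399 to 17837002, minus strand), was at 306 and 320.3 CPM in UHRF1 KO libraries and 237 and 235 CPM in control libraries. Both UHRF1 KO libraries lay above both controls, and the log2 fold change was 0.41, with an SE of 0.038 and an edgeR adjusted p of 2.52e-11. That value was 0.29 after GC and length detrending and -0.01 (edgeR adjusted p = 0.801) with libraries recentred, or 0.22 above the median gene of that fit. SREBF2, whose product chiefly drives sterol genes, was at 184 and 186 CPM in UHRF1 KO libraries and 204 and 201 CPM in control libraries. It fell by 0.13 on the log2 scale, with an SE of 0.040 (edgeR adjusted p = 0.00418), and was not called without UHRF1 KO replicate 1 (edgeR adjusted p = 0.0642). With libraries recentred SREBF2 was at -0.50, or -0.27 relative to the median gene of that fit. Per exon length the ratio of SREBF1 to SREBF2 was 1.57 and 1.62 in UHRF1 KO libraries and 1.09 and 1.10 in control libraries. Gene counts do not separate the isoforms of SREBF1 and do not measure the cleaved, active proteins.

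SCAP and the INSIG genes, which set how much SREBP leaves the endoplasmic reticulum, had TMM log2 fold changes between -0.15 and 0.14. SCAP was at 58.3 and 62.0 CPM in UHRF1 KO libraries and 55.6 and 54.0 CPM in control libraries. Its log2 fold change of 0.14 only just passed the test (edgeR adjusted p = 0.0418). The SCAP call was lost without any one of the 4 libraries (edgeR adjusted p from 0.0631 to 0.401), with DESeq2 (adjusted p = 0.194) and with a replicate block (edgeR adjusted p = 0.0585), and the value was -0.01 after GC and length detrending and -0.31 with libraries recentred, -0.07 relative to the median gene of that fit. INSIG1, itself an SREBP target, was at 150 and 157 CPM in UHRF1 KO libraries and 166 and 174 CPM in control libraries. INSIG1 was 1.11-fold lower (edgeR adjusted p = 0.00396), and not called without UHRF1 KO replicate 1 (log2 fold change -0.12). Recentred, INSIG1 was at -0.39 on the log2 scale (edgeR adjusted p = 2.91e-13), or -0.16 relative to the median gene. INSIG2, the INSIG gene known to be less dependent on SREBPs, was at 17.8 and 15.9 CPM in UHRF1 KO libraries and 17.8 and 17.8 CPM in control libraries. It was the 1 gene of the 32 whose groups overlapped, with a log2 fold change of -0.08 and an interval of -0.28 to 0.12, with 0.10 after GC and length detrending and -0.20 (edgeR adjusted p = 0.0658) with libraries recentred. STARD4, a cytosolic sterol carrier that SREBPs induce, was at 72.2 and 69.6 CPM in UHRF1 KO libraries and 57.6 and 65.7 CPM in control libraries. It rose 1.15-fold (edgeR adjusted p = 0.00364), a call that was lost without control replicate 1 (edgeR adjusted p = 0.201) or without UHRF1 KO replicate 1 (edgeR adjusted p = 0.0567) and stood at 0.14 on the log2 scale with libraries recentred.

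The 3 synthesis roles were each lower when summed, in both UHRF1 KO libraries. The mevalonate genes together were at 590 and 573 CPM in UHRF1 KO libraries and 947 and 949 CPM in control libraries, 38.7% lower. The squalene to cholesterol genes were at 949 and 941 CPM in UHRF1 KO libraries and 1424 and 1400.3 CPM in control libraries, 33.1% lower. The fatty acid genes were at 6825 and 6730.1 CPM in UHRF1 KO libraries and 9729 and 9739 CPM in control libraries, 30.4% lower, or 32.9% lower without SCD, which held much of that sum. The regulators summed to 788 and 811 CPM in UHRF1 KO libraries and 738 and 747 CPM in control libraries, a mean 108% of control. SREBF1 carried that sum: the other 5 regulators summed to 482 and 490.5 CPM in UHRF1 KO libraries and 501 and 512 CPM in control libraries, 95.9% of control. Together the 32 genes took 0.948% (exact 95% interval 0.944 to 0.952) and 0.939% (0.935 to 0.943) of all counts in UHRF1 KO libraries and 1.23% (1.23 to 1.24) and 1.24% (1.23 to 1.24) in control libraries. The intervals cover counting error only.

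**Figure D3:**
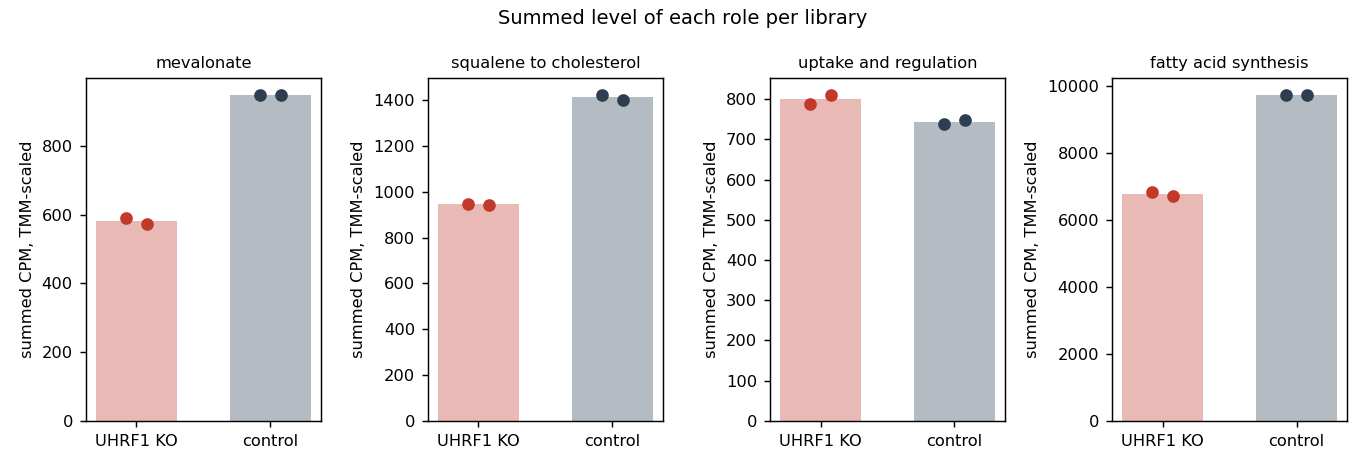
Summed level of the genes of each role. The y axis of each panel is summed TMM-scaled CPM from 0, points are single libraries (2 UHRF1 KO on the left, 2 control on the right) and bars are their means. The 3 synthesis roles are lower in both UHRF1 KO libraries, and the regulators are at 788 and 811 CPM against 738 and 747 CPM in control.

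Other genes of sterol and lipid handling, from a list of 38 of which 37 could be tested, went both ways, with 13 higher and 13 lower. These are 35.1% of the 37 each way, close to the 32% higher and 30.1% lower over all genes tested. THRSP was not tested, with 2 counts in 1 UHRF1 KO library and 0 in the other 3 libraries. Of 17 genes of sterol handling 8 rose and 4 fell, of 4 genes of SREBP processing and INSIG turnover 0 rose and 2 fell, and of 16 other fatty acid and lipid synthesis genes 5 rose and 7 fell. The shares that rose were 47.1%, 0% and 31.2%, and the shares that fell 23.5%, 50% and 43.8%. Their median log2 fold changes were 0.16, -0.14 and -0.05. The sterol exporters ABCA1 and ABCG1 had the largest rises among the sterol handling genes. ABCA1 was at 181 and 176 CPM in UHRF1 KO libraries and 36.3 and 40.3 CPM in control libraries, 4.65-fold higher (edgeR adjusted p = 4.82e-27). ABCG1 was at 14.5 and 16.0 CPM in UHRF1 KO libraries and 2.80 and 2.64 CPM in control libraries, 5.61-fold higher (edgeR adjusted p = 9.49e-16). NPC1, which exports cholesterol from lysosomes, was at 488 and 471 CPM in UHRF1 KO libraries and 335 and 316 CPM in control libraries, 1.47-fold higher. The genes of the oxysterol-sensing liver X receptors on the list, NR1H3 and NR1H2, did not pass the test. Their log2 fold changes were 0.02 (95% interval -0.14 to 0.18) and 0.09 (-0.0049 to 0.18).

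Several further lipid genes moved with the synthesis genes or against them. TMEM97, a sterol-regulated membrane protein, was at 83.4 and 80.9 CPM in UHRF1 KO libraries and 158 and 150.1 CPM in control libraries, 1.88-fold lower. LPIN1, a phosphatidate phosphatase, had a mean of 58.1 CPM in UHRF1 KO and 107 CPM in control and fell 1.83-fold. ME1, a malic enzyme that makes NADPH, had a mean of 91.0 CPM in UHRF1 KO and 164 CPM in control and fell 1.80-fold. LBR, the lamin receptor that also reduces sterols, fell 1.64-fold, and the elongase ELOVL5 fell 1.34-fold. MLXIPL, which encodes the glucose-responsive lipogenic factor ChREBP, was at 14.8 and 17.6 CPM in UHRF1 KO libraries and 2.52 and 1.94 CPM in control libraries, 7.28-fold higher (edgeR adjusted p = 1.83e-16). ACSL4, which activates polyunsaturated fatty acids, was at 311 and 311 CPM in UHRF1 KO libraries and 179 and 186 CPM in control libraries, 1.71-fold higher. These 10 genes kept their direction and their call in each of the 13 other fits.

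**Figure D4:**
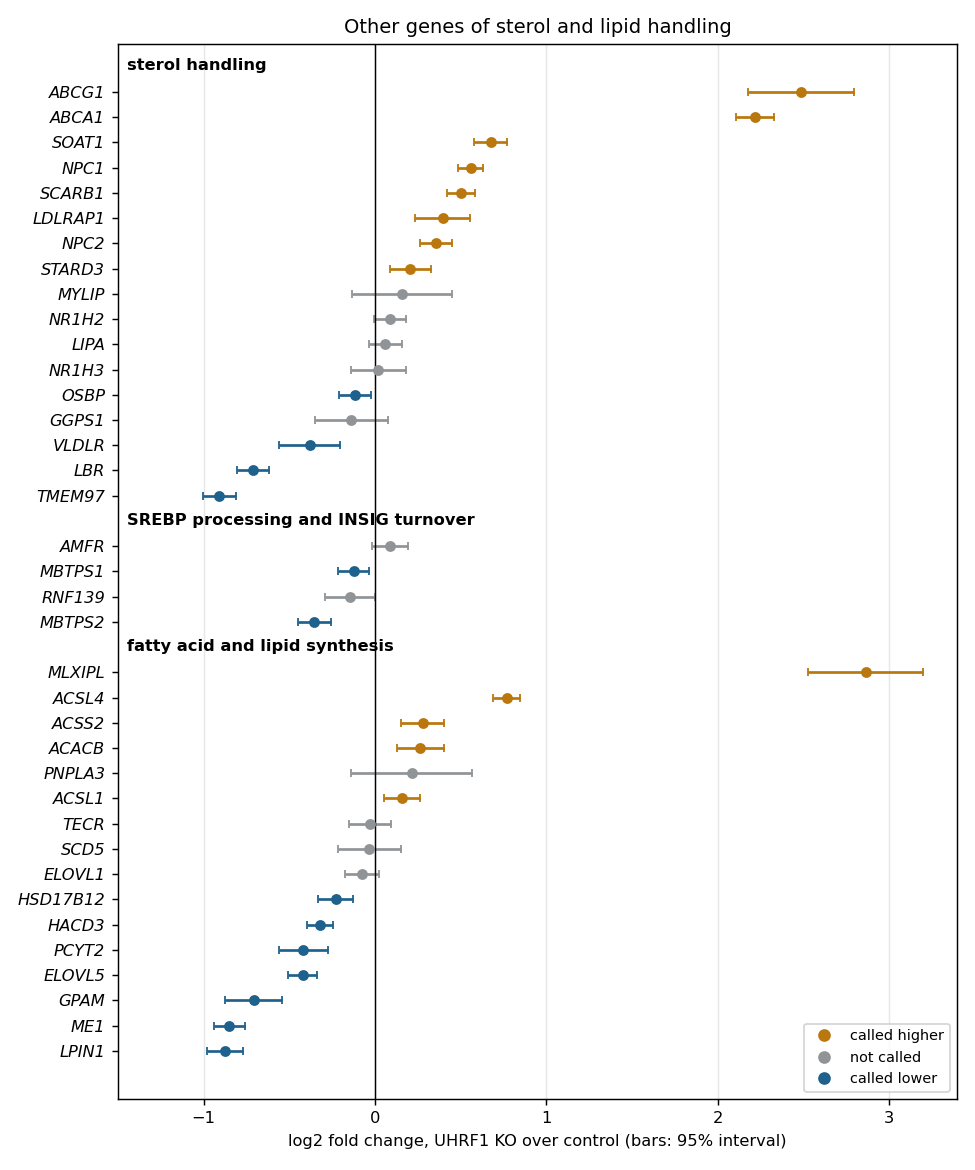
Fold change of the 37 other tested genes of sterol and lipid handling, by subgroup. The x axis is the log2 fold change of UHRF1 KO over control with approximate 95% intervals as bars, and colour gives the call at an adjusted p under 0.05. MLXIPL, ABCG1 and ABCA1 stand alone above 2, and the remaining genes lie between -0.91 and 0.77.

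Promoter sequence was read for 28 of the 32 genes, 38 windows of 250 bases upstream of annotated starts from RefSeq (GRCh38.p14), with ACAT2, FASN, FDFT1 and SQLE not matched. SREBPs bind sterol regulatory elements and work at many sterol genes with the factor NF-Y, whose box reads CCAAT. Searched on both strands, CCAAT was found in 63.2% of the 38 windows, against 32.4% of 15817 windows of protein-coding genes tested and 32% of all 35116 windows. By role the share was 66.7% of 9 mevalonate, 81.8% of 11 squalene to cholesterol, 54.5% of 11 fatty acid and 42.9% of 7 regulator windows. It was 65.5% in the 29 windows of genes that fell and 55.6% in the 9 other windows. Some genes have more than 1 window, and such windows can overlap and hold the same boxes. By gene, 20 of the 28 had a box in at least 1 window, against 4428 of 10768 protein-coding genes tested. The sterol element searched as TCACNCCAC was found in 1 window, that of SREBF2, and in 0.883% of all windows; the E-box CACGTG was found in 4 of the 38 windows and in 6.34% of all. The 38 windows held a median of 23.5 CpG dinucleotides, against 19 in windows of protein-coding genes tested. Matches describe letters only, and no match says only that these letters are not in this window.

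The stretches printed here were picked to show how the boxes look in a few synthesis genes that fell (HMGCS1, MSMO1, NSDHL, ACLY), in MVD, which was not called, and in the SREBF genes. They do not stand for all windows: CYP51A1, FADS1, FADS2, ELOVL6 and PMVK fell with 0 boxes in any window, while STARD4 was called higher with 2. Except for SREBF2, each is a part of its window outside annotated exons, 5′ to 3′ on the gene's strand, with CCAAT or its reverse complement ATTGG in capitals. They lie at chr5:43313513-43313662 (minus strand) for HMGCS1, chr16:88663162-88663297 (minus) for MVD, chr4:165327419-165327622 (plus) for MSMO1, chrX:152830813-152830966 (plus) for NSDHL, chr17:41919023-41919272 (minus) for ACLY and chr17:17837003-17837236 (minus) for SREBF1, which has none. For SREBF2 the 29 bases around its sterol element at chr22:41832962-41832990 (plus) are given, with the element in capitals. They lie inside an annotated exon, and that window also holds 1 CCAAT box, not shown. The full windows of HMGCS1, MSMO1 and NSDHL hold 2, 4 and 5 boxes, of which 1, 3 and 4 are in the printed stretches.
HMGCS1: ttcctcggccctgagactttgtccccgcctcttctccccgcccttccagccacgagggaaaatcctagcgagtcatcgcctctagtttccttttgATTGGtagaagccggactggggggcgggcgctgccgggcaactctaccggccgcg
MVD: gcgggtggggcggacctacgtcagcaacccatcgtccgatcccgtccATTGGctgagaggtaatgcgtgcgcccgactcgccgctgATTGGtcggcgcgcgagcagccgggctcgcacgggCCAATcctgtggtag
MSMO1: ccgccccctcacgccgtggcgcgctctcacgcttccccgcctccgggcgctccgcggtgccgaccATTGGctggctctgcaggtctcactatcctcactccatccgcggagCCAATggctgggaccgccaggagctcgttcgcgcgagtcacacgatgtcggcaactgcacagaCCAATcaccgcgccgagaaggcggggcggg
NSDHL: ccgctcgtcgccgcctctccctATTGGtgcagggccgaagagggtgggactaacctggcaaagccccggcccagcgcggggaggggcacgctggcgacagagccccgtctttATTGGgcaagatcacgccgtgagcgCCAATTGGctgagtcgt
ACLY: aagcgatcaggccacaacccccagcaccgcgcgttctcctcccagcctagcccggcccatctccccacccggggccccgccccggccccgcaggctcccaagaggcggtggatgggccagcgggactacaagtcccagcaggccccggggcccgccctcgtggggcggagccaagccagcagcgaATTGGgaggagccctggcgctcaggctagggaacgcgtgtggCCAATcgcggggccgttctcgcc
SREBF1: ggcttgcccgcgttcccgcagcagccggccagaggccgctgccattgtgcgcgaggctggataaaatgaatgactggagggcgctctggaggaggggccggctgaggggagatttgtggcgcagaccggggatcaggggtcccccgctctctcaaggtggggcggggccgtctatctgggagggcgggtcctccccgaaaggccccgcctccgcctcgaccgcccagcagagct
SREBF2: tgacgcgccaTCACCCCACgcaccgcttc

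The scaling of the libraries bears on the small changes and less on the large ones. Recentring every library, after removal of trends with GC content and length, had a wide effect. The recentring step alone moved genes by a common -0.30 on the log2 scale, so sign changes under it are relative to that shift. Against TMM the median gene shifted by -0.29, and the calls over all genes were 3545 higher and 8222 lower in place of 5445 and 5118. Under that setting 1 of the 32 genes was called higher (STARD4) and 28 lower, where 48.3% of all genes were called lower. Relative to the median gene of that fit, ACAT2, HMGCS1, CYP51A1 and ACLY were at -1.18, -0.91, -0.98 and -1.08. Detrending without recentring moved the log2 fold changes of PMVK (-0.82), IDI1 (-0.15), ELOVL6 (-0.45), FASN (-0.20) and SREBF2 (-0.21) by more than 1.5 times and kept their sign. The same held for INSIG1 (-0.096), STARD4 (0.44), SC5D (0.29) and TM7SF2 (-0.45). Across the 32 genes the Spearman correlation of log2 fold change with transcript GC content was 0.051 and with exon length 0.13, as a description over genes of the same 4 libraries; over all genes tested these were 0.18 and -0.056.

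**Figure D5:**
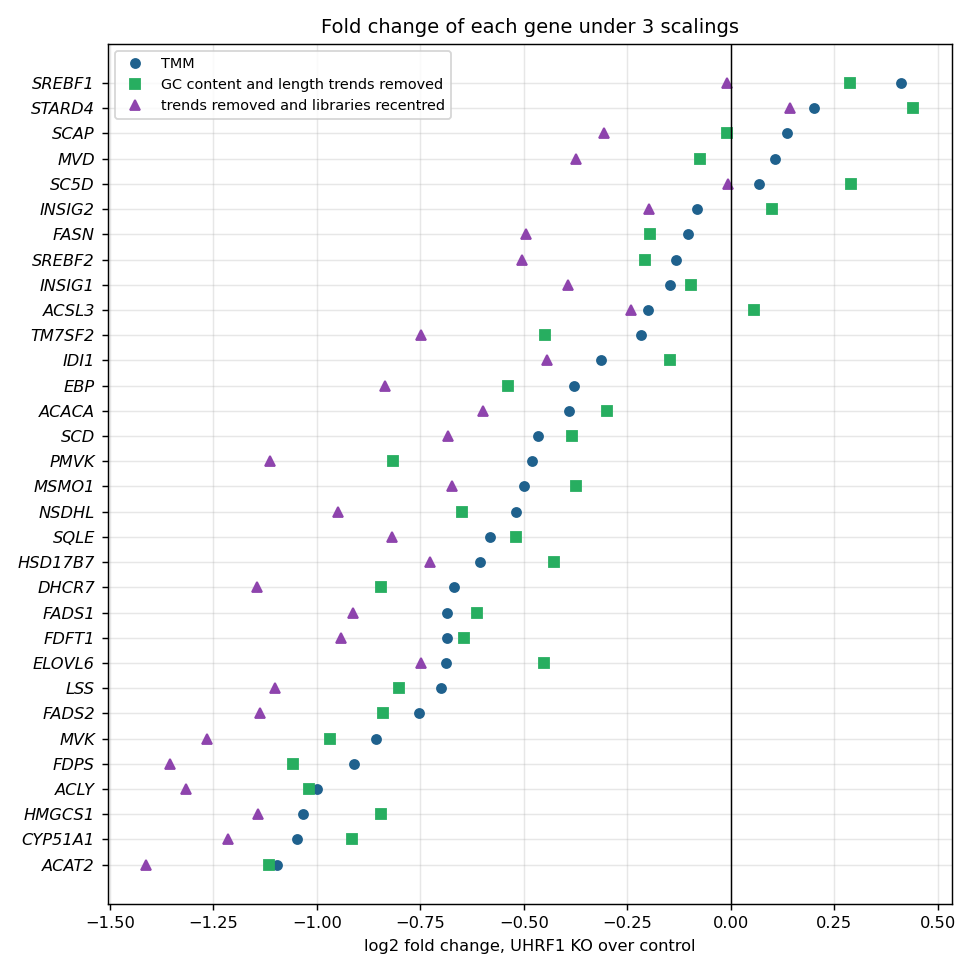
Log2 fold change of UHRF1 KO over control for each of the 32 genes under 3 scalings, ordered by the TMM value. Circles are TMM, squares are after GC and length detrending, and triangles have libraries recentred as well. The 6 lowest genes stay at or below -0.845 under all 3, while SREBF1 is at 0.41 with TMM and -0.01 with recentring. That last value is 0.22 above the median gene of the recentred fit. MVD, SCAP, SC5D, INSIG2 and ACSL3 cross 0 under at least 1 setting.

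Some genes share exon bases with a neighbour whose counts were at least 10% of their own, and the labels do not state if counting used strand. These were ACAT2 with TCP1 (397 bases, opposite strand), MVK with MMAB (306, opposite), SREBF1 with RAI1 (556, opposite), TM7SF2 with VPS51 (16, same strand) and the FADS pair with each other, FADS2 also sharing 49 bases with FEN1. MMAB fell with MVK, at a log2 fold change of -0.67, and TCP1 fell by 0.54 on the log2 scale while RAI1 was at -0.14. Without these 6 genes 21 of the remaining 26 fell and 2 rose. CYP51A1 shares 79.4% of its exon bases with AC000120.2 on the same strand, which had at most 2 counts in a library.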

How the data were processed

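RNA of A549 cells was made into libraries with a SMARTER mRNA-Seq kit, per the labels' protocols. The values deposited by the authors are raw read counts per Ensembl gene. FastQC 0.10.1 and the build GRCh38 are listed in the submitters' processing notes. The aligner, counter, annotation and strand setting are not stated there or in the labels. Both control descriptions carry the same number, so control columns were matched through the sample titles.

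All 58735 gene IDs matched GENCODE 29. Counts were filtered (edgeR filterByExpr, 17030 genes kept), scaled with TMM and tested with edgeR 4.0.16 (quasi-likelihood, R 4.3.3), UHRF1 KO over control, with Benjamini-Hochberg adjustment over all genes tested and a threshold of 0.05. Fold changes in text are the fitted values, and intervals of 95% come from the fitted standard errors. The 2 libraries of a group differed by more than sampling noise, with a chi-square per degree of freedom of 1.85 in UHRF1 KO and 2.65 in control. One count was worth 0.0417 to 0.0538 CPM. Alternatives were DESeq2 1.42.0, limma-voom (limma 3.58.1), other scalings and filters, a replicate block, each library left out, and removal of trends with GC content and exon length within each library, also with libraries recentred afterwards. The script was tested on simulated data.

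All 32 members, UHRF1 and, from a list of other pathway genes, up to 5 called higher and 5 called lower with the smallest adjusted p were named; THRSP, the liver X receptor genes, the marker genes and the overlapping neighbours were named outside that rule. Members and lists were chosen with earlier results of these data known. Some further genes of the pathway are not reported here.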

Additional observations from a re-analysis of the deposited data

How the results depend on the processing

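Across 13 other fits, 21 of the 25 genes that fell were called lower in every one, and 0 of the 3 that rose were called higher in every one. Over single genes and 15 alternatives, 428 of the values for the 32 genes kept direction and call, 37 lost the call, 7 gained it and 8 changed sign; the other 10 named pathway genes and UHRF1 changed sign in 0.

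Asking for at least 2-fold left 2616 higher and 432 lower genes in all, and 0 higher and 4 lower of the 32, of which 2 were mevalonate, 1 squalene to cholesterol, 1 fatty acid and 0 regulator genes; 0 regulators were higher. Upper-quartile scaling, and a minimum of 1 CPM in 2 libraries, each called 1 mevalonate gene (MVD) higher. With GC content and length trends removed, 1 squalene to cholesterol gene was called higher, and the signs turned for SCAP (-0.0086), MVD (-0.075), INSIG2 (0.10) and ACSL3 (0.057). With libraries also recentred, 3545 genes were higher and 8222 lower, 1 of the 32, a regulator, was higher, and SREBF1 (-0.010), SCAP (-0.31), MVD (-0.37) and SC5D (-0.0077) turned. Recentring moved genes by a common -0.30, and relative to the median gene of that fit SREBF1 was at 0.22, SC5D at 0.23, SCAP at -0.07 and MVD at -0.14. For the other changes the cause was not tested.

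Leaving out 1 library gave 1 to 2 genes of the 32 called higher, all regulators (1 to 2), and 0 to 2 regulators called lower; the lowest counts of higher genes came without control replicate 1 and without UHRF1 KO replicate 1, and the lowest of lower regulators without UHRF1 KO replicate 1. With one library left out, the lone sample of that group is assumed to vary like the other group.

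With the replicate number as a block, 5280 genes were higher and 4986 lower, and of the 32 genes 2 were higher and 25 lower. The numbers share only a label: deviations of same-numbered libraries correlated at -0.014 over 17030 genes. Of the 32 genes the block changed only the SCAP call.

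Leaving out the 6 genes that overlap a neighbour, an alternative chosen after seeing the data, gave 2 higher and 21 lower. TM7SF2, with 286 to 364 counts a library, had the largest SE of the 32 genes (0.10 on the log2 scale), and SCD the smallest (0.029).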
